A study of Mus musculus with 10 samples.

Results

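The 9 genes described here encode proteins of the contacts between neighbouring endothelial cells: Cdh5, Cldn5, Esam, Pecam1, Jam2, Jam3, F11r, Tjp1 and Ocln. They were taken by gene symbol from a table of RNA-seq counts that holds 56748 genes, and each symbol matched 1 gene. The table covers 10 libraries of mouse primary adipocytes, 5 labelled control and 5 labelled knockout (KO), and 8 of the 9 genes had enough counts to be tested. The genes were divided into 4 whose transcripts are largely restricted to endothelium among the cells of fat (Cdh5, Cldn5, Esam and Pecam1) and 5 that many cell types transcribe (Jam2, Jam3, F11r, Tjp1 and Ocln).

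Both groups carried floxed alleles of Fam20c, which encodes a kinase of the secretory pathway. Control cells had the genotype Fam20c-flox, and KO cells had Fam20c-flox/Adipoq-Cre, a Cre driven by the promoter of adiponectin, which is active in adipocytes and is not meant to act in endothelial cells. The starting material was the stromal vascular fraction (SVF) of inguinal fat from male mice aged 6 to 8 weeks, which was turned into adipocytes over 6 to 8 days of culture. The SVF is a mixed preparation that holds adipose progenitors together with endothelial, immune and mural cells, and the libraries were made from whole cultures. The labels do not say whether the 5 libraries of a group came from separate mice or cultures, so P values measure the spread between these libraries.

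Neighbouring endothelial cells are joined by adherens junctions and tight junctions, which hold the vessel wall together and set what passes between the cells. At adherens junctions the adhesion protein is VE-cadherin, the product of Cdh5, whose tail binds catenins that connect it to actin. At tight junctions claudins, occludin and the junctional adhesion molecules (JAMs) span the membrane, and the ZO proteins lie beneath them as scaffolds. Claudin-5 is the main claudin of endothelium, known best from the blood-brain barrier, and PECAM-1 (CD31) and ESAM are adhesion proteins of endothelial cells and platelets that gather at the same contacts. F11r, Tjp1 and Ocln also serve the junctions of epithelia, and ZO-1, the product of Tjp1, occurs in stromal cells too.

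Promoter sequence from RefSeq on GRCm38.p6 was at hand for 4 of the genes (Cldn5, F11r, Tjp1 and Ocln, the last with 2 start sites). The stretches upstream of the starts of Cldn5 and F11r are given, as 1 gene of each class, with capitals for the ETS core GGAA, the CCAAT box and the GC box GGGCGG on either strand, none of which overlap here.
Cldn5: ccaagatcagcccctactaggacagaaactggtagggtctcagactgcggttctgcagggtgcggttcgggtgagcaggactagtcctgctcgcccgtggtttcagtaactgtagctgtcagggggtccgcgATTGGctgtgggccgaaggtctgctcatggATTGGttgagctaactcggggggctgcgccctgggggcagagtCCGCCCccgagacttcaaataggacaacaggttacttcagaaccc
F11r: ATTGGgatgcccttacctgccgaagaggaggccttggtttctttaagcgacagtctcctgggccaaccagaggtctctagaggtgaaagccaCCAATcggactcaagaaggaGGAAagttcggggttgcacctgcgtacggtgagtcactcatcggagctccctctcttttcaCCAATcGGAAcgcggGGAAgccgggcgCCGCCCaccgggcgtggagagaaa
The Cldn5 stretch of 250 bases on the plus strand (chr16:18776597-18776846) held 2 CCAAT boxes, 1 GC box and 0 matches to GGAA, while the 224 bases of F11r on the plus strand (chr1:171437311-171437534) held 3 CCAAT boxes, 1 GC box and 3 matches to GGAA. Over windows reaching from 250 bases before the start to 50 after it, GGAA was present in 96.0% of 32851 mouse promoters, CCAAT in 37.4% and GGGCGG in 35.7%. Neither of these genes held the TATA box TATAAA, which 13.6% of all promoters had. In the same windows, longer than the printed stretches, F11r had 4 matches to GGAA, 4 to CCAAT and 1 to GGGCGG. Cldn5 had 0, 2 and 1 there, and Tjp1 had 3, 0 and 2. These matches are letters in the sequence, and binding was not measured.

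Libraries held 18949106 to 26237825 counts in controls and 19883101 to 23291792 in KO cells. Replicate libraries of either group were distinct, their counts differing beyond counting error (lowest chi-square over its degrees of freedom, 3.50). On the first principal component, with 23.5% of the variance, control 4 at 21.7 and KO 1 at 24.2 lay apart from the other libraries, which ranged from -14.8 to 8.59. The number of members called by edgeR in each direction was the same without these 2 libraries. Fam20c itself fell from 10.2 ± 1.29 to 7.30 ± 0.449 CPM (SD, n = 5 each, log2 fold change -0.49, adjusted P = 0.0137). CPM are counts scaled to a common library size after TMM correction for composition.

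The 4 endothelial-restricted genes were all lower in KO cells, by more than the spread between libraries, and so was 1 of the 4 widely expressed genes that could be tested, Jam2. None of the 9 was higher. The quasi-likelihood test of edgeR called 5 of 8 members lower and 0 higher at a Benjamini-Hochberg limit of 0.05, where it called 1.86% of all 14270 genes tested lower and 0.308% higher. DESeq2 likewise called 5 members lower and 0 higher, against 2.52% and 0.876% of all genes. At an unadjusted P value under 0.05, 5 members were lower and 0 higher, against 7.46% and 4.43% of all genes. In the same 5 members every KO library lay below every control library, an arrangement that 2.66% of all genes tested showed. In these bulk cultures, fewer endothelial cells and less junction RNA per endothelial cell cannot be told apart.

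**Figure D1:**
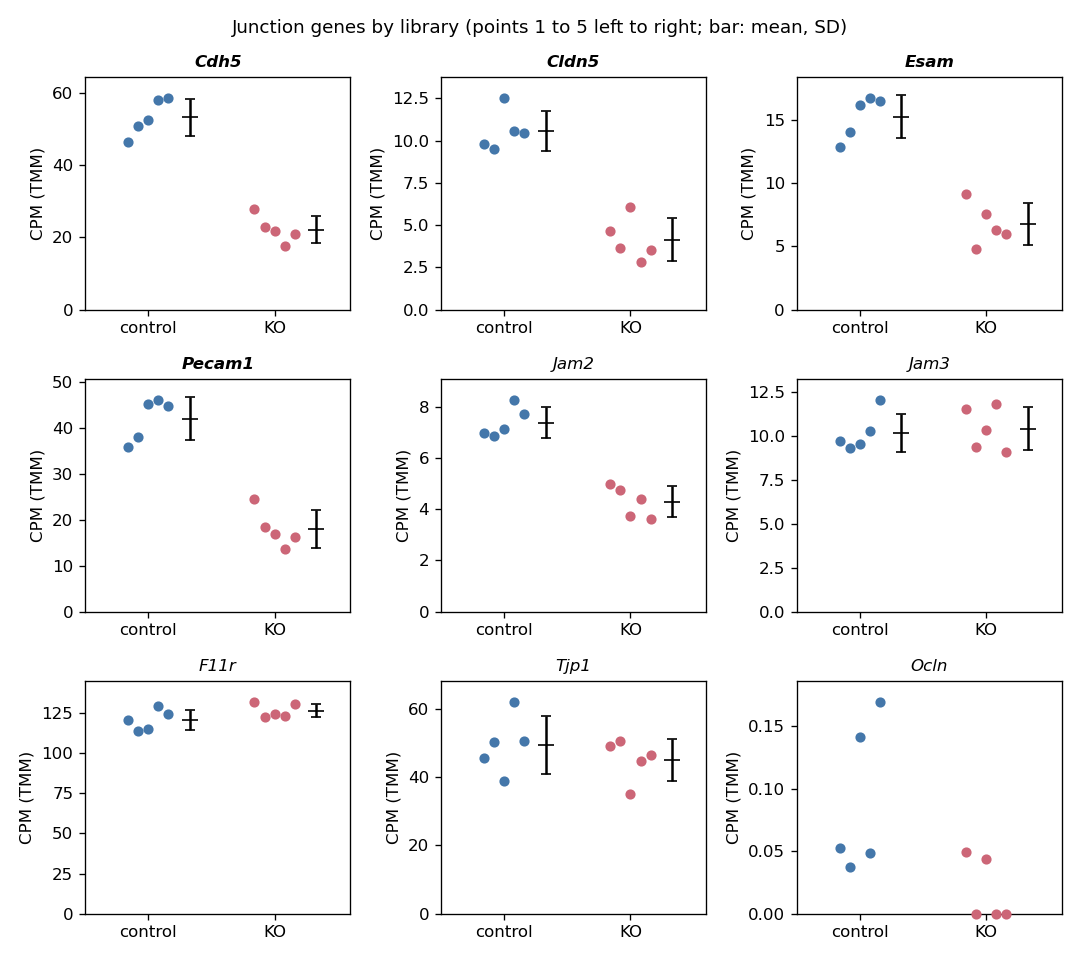
Level of each junction gene in CPM (TMM scaled) in the 5 control (blue) and 5 KO (red) libraries, with the mean and SD beside the points and the endothelial-restricted genes in bold. The groups do not overlap in the 4 restricted genes and Jam2, and they overlap in Jam3, F11r, Tjp1 and Ocln, the last drawn without a mean since it rests on 12 counts.

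Cdh5 (ENSMUSG00000031871.10) encodes VE-cadherin and lies on chromosome 8 of GRCm38, from 104101625 to 104144511 on the plus strand. Controls 1 to 5 measured 46.2, 50.8, 52.3, 57.9 and 58.4 CPM, and KO libraries 1 to 5 measured 27.7, 22.7, 21.6, 17.6 and 20.8 CPM. KO 1, the highest KO library, still lay well below control 1, the lowest control. The mean fell from 53.1 ± 5.11 to 22.1 ± 3.67 CPM (SD, n = 5 each), or to 41.5% of the control level. The log2 fold change was -1.27 (SE 0.104, adjusted P = 5.3e-05), and the 2-sided exact permutation test gave P = 0.00794, the smallest that 5 libraries against 5 allow. An antisense gene, Gm29682, overlaps Cdh5 but shares 0 bases of its exons.

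Cldn5 (ENSMUSG00000041378.3), the gene of claudin-5, is a short gene on chromosome 16, from 18776847 to 18778262 on the plus strand, where the promoter printed above ends. Its level was 9.81, 9.49, 12.5, 10.6 and 10.4 CPM in controls 1 to 5, and in KO libraries 1 to 5 it was 4.66, 3.64, 6.07, 2.84 and 3.51 CPM. The third library was the highest of both groups, and KO 4 was the lowest of all. The mean went from 10.6 ± 1.18 to 4.15 ± 1.26 CPM (SD, n = 5 each), 39.4% of control, with a log2 fold change of -1.34 (SE 0.167, adjusted P = 0.00079). Among the members tested this was the largest fall and also the largest standard error, on 62 to 266 counts per library.

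Pecam1 (ENSMUSG00000020717.20) encodes PECAM-1, which binds PECAM-1 on the neighbouring cell, and lies on chromosome 11, from 106654217 to 106750628 on the minus strand. It measured 35.8, 38.1, 45.2, 46.0 and 44.9 CPM in controls and 24.6, 18.4, 16.9, 13.7 and 16.3 CPM in KO libraries. As with Cdh5, KO 1 was the highest and KO 4 the lowest of the KO libraries, and controls 1 and 2 were the lowest controls. Its mean of 42.0 ± 4.71 CPM in controls compared with 17.98 ± 4.06 CPM in KO cells (SD, n = 5 each), 42.8% of control, and the log2 fold change was -1.23 (SE 0.130, adjusted P = 0.000271).

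Esam (ENSMUSG00000001946.15) encodes an adhesion molecule of the immunoglobulin family at endothelial tight junctions and lies on chromosome 9, from 37528078 to 37538319 on the plus strand. The control libraries had 12.8, 14.1, 16.2, 16.7 and 16.5 CPM, and the KO libraries had 9.18, 4.83, 7.59, 6.28 and 5.95 CPM. Here KO 2 was the lowest and KO 1 again the highest of the KO libraries. The mean fell from 15.3 ± 1.72 to 6.77 ± 1.67 CPM (SD, n = 5 each), 44.2% of control (log2 fold change -1.18, SE 0.145, adjusted P = 0.000775).

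The falls of the restricted genes lay close to each other, spanning 0.17 on the log2 scale. In 6 pairwise comparisons of the 4 genes within libraries, log2 fold changes differed by -0.18 to 0.10, and exact permutation tests gave unadjusted P values from 0.294 to 0.857. A difference between any pair was therefore not detectable with 5 libraries a group, which does not show that they fell alike. Relative to the mean, the KO libraries varied more than the controls in all 4 genes, with coefficients of variation of 16.6% to 30.3% against 9.62% to 11.3%, a difference that was not tested.

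The JAMs are immunoglobulin-type adhesion molecules that bind each other, integrins and ZO-1. Jam2 (ENSMUSG00000053062.17), the gene of JAM-B, lies on chromosome 16, from 84774123 to 84825928 on the plus strand, and is known from endothelium of many organs as well as from other cells. It had 6.97, 6.86, 7.15, 8.27 and 7.74 CPM in controls and 5.01, 4.74, 3.75, 4.398 and 3.61 CPM in KO libraries. The groups did not overlap, and the mean fell from 7.40 ± 0.592 to 4.30 ± 0.608 CPM (SD, n = 5 each), 58.2% of control (log2 fold change -0.78, SE 0.106, adjusted P = 0.00146). Its fall was smaller in size than those of the restricted genes, a difference that was not tested.

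Jam3 (ENSMUSG00000031990.16), the gene of JAM-C, lies on chromosome 9, from 27097384 to 27155421 on the minus strand. Controls had 9.70, 9.30, 9.55, 10.3 and 12.0 CPM, and KO libraries had 11.5, 9.35, 10.3, 11.8 and 9.06 CPM. The groups overlapped over nearly their whole range, with means of 10.2 ± 1.09 and 10.4 ± 1.23 CPM (SD, n = 5 each, log2 fold change 0.03, SE 0.0974, adjusted P = 0.954). The sign of this value turned when KO 1 or KO 4 was left out, to as low as -0.015. The exons of Jam3 overlap those of the antisense gene Gm48796, and since the strand setting of the counting was not given, reads of the 2 genes cannot be told apart.

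F11r (ENSMUSG00000038235.5), the gene of JAM-A, lies on chromosome 1, from 171437535 to 171464603 on the plus strand. It was the member with the most CPM, at 120.7, 114.2, 115.3, 129.8 and 124.3 CPM in controls and 131.9, 122.7, 124.7, 123.6 and 131.0 CPM in KO libraries. Means of 120.9 ± 6.48 and 126.8 ± 4.32 CPM (SD, n = 5 each) did not differ beyond the spread (log2 fold change 0.07, SE 0.0443, adjusted P = 0.618).

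Tjp1 (ENSMUSG00000030516.15), which encodes the scaffold ZO-1, lies on chromosome 7, from 65296165 to 65527781 on the minus strand. Its CPM were 45.8, 50.5, 38.9, 62.1 and 50.6 in controls and 49.3, 50.6, 35.0, 44.9 and 46.5 in KO libraries. Control 4 was the highest and the third library the lowest in both groups, and the ranges overlapped. The means were 49.6 ± 8.45 and 45.3 ± 6.15 CPM (SD, n = 5 each, log2 fold change -0.13, SE 0.119, adjusted P = 0.756).

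Ocln (ENSMUSG00000021638.13), the gene of occludin, lies on chromosome 13, from 100496507 to 100552718 on the minus strand, and was nearly absent from these libraries. Controls 1 to 5 held 1, 1, 3, 1 and 4 counts, and the KO libraries held 1, 0, 1, 0 and 0 counts. The sums of 10 and 2 counts gave a KO to control ratio of 0.208, with an exact 95% interval of 0.0221 to 0.974 that covers counting error only. Ocln was removed by the filter on low counts. Tested without that filter it had an adjusted P value of 0.579, so a difference was not detectable at this depth.

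**Figure D2:**
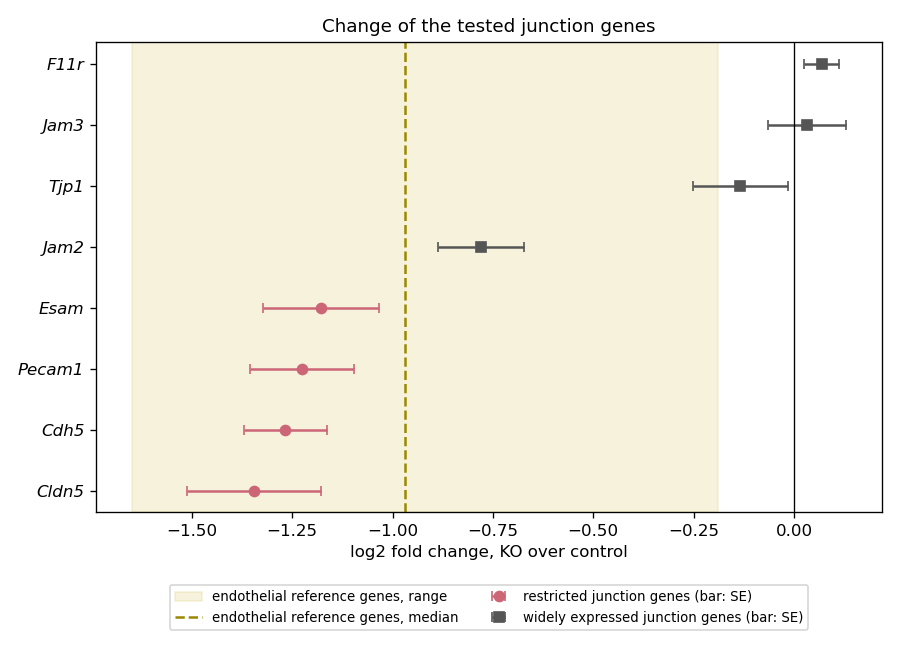
Log2 fold change of KO over control with its SE for the 8 junction genes tested (circles: endothelial-restricted, squares: widely expressed), over the range (shaded, -1.65 to -0.19) and median (dashed, -0.97) of 25 other endothelial genes. The restricted genes lie between -1.34 and -1.18, Jam2 at -0.78, and Tjp1, Jam3 and F11r between -0.13 and 0.07.

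To compare levels between genes, CPM were divided by the length of the exons in kb, giving FPKM. In control cells F11r led with 45.4 ± 2.43 FPKM, followed by Cdh5 with 12.6 ± 1.22 FPKM (SD, n = 5). Cldn5 (7.46 ± 0.831), Pecam1 (6.74 ± 0.756), Tjp1 (6.35 ± 1.08) and Esam (5.33 ± 0.601) came next in FPKM, and each overlapped its neighbour in this order. Jam3 (3.18 ± 0.340), Jam2 (1.22 ± 0.0979) and Ocln (0.0212 ± 0.0144) were lower, each without overlap with the gene above it. The FPKM of Jam3 used its full exon length, including the bases shared with Gm48796. If reads there were not counted, its FPKM is too low and its place in the order of either group is uncertain. Per length, Cdh5 stood above the widely expressed Tjp1 in every control library.

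In KO cells the order of FPKM was different. F11r stayed first with 47.6 ± 1.62 FPKM (SD, n = 5), while Tjp1 with 5.79 ± 0.787 FPKM and Cdh5 with 5.25 ± 0.873 FPKM overlapped. Jam3 (3.25 ± 0.383 FPKM) overlapped Cldn5 (2.93 ± 0.887 FPKM), which overlapped Pecam1 (2.89 ± 0.652 FPKM), which overlapped Esam (2.36 ± 0.582 FPKM). Jam2 stood below them at 0.712 ± 0.101 FPKM.

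Together the 4 restricted genes summed to 32.2 ± 2.97 FPKM in controls and 13.4 ± 2.52 FPKM in KO cells (SD, n = 5 each). They made up 33.7% to 39.5% of the summed FPKM of the 9 genes in control libraries and 15.7% to 22.02% in KO libraries, without overlap, and the share of F11r went from 49.9–54.3% to 64.1–69.6%. Within the restricted genes the shares were close in the 2 groups. Cdh5 held 39.3% of their sum in either group, Cldn5 23.2% and 21.6%, Pecam1 20.9% and 21.5%, and Esam 16.5% and 17.6% in control and KO cells. The FPKM ratio of Cdh5 to Pecam1 was 1.88 ± 0.100 in controls and 1.84 ± 0.0981 in KO cells, whereas that of Cdh5 to Tjp1 was 2.02 ± 0.304 and 0.917 ± 0.173 (SD, n = 5 each).

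**Figure D3:**
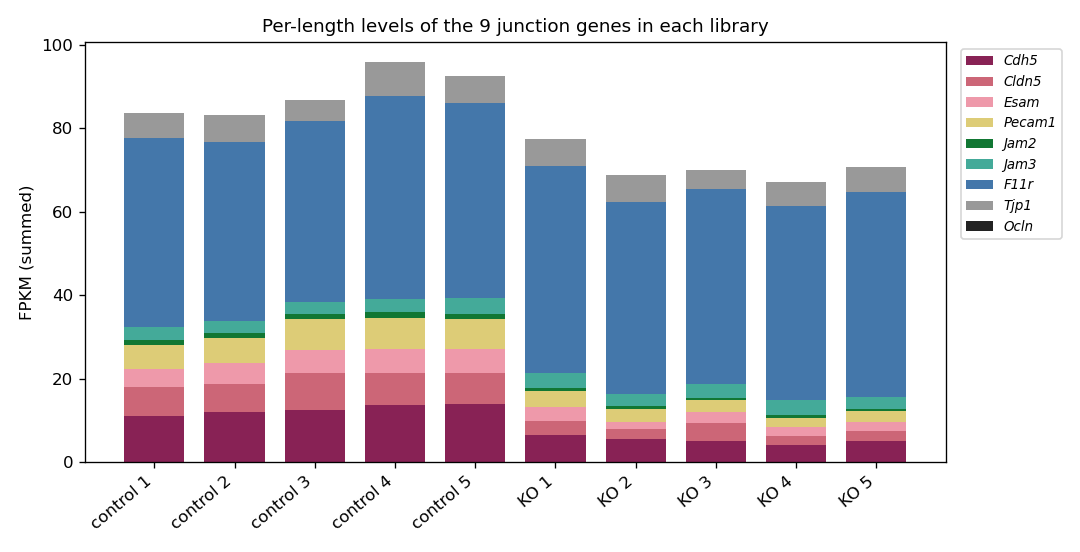
Stacked FPKM (CPM per kb of exon) of the 9 junction genes in each of the 10 libraries. The lower 4 bands, the endothelial-restricted genes, make up 33.7% to 39.5% of the bar in controls and 15.7% to 22.02% in KO libraries, while F11r averages 45.4 and 47.6 FPKM.

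Tjp1 served as a within-library yardstick, as 1 widely expressed gene that need not stand for the others. Its coefficient of variation in controls, 17.0%, was the largest among the members tested. The difference in log2 CPM between each of the other 7 tested members and Tjp1 was compared between groups by exact permutation tests, with unadjusted P values. Relative to Tjp1, Cdh5 fell by 1.15 on the log2 scale, Pecam1 by 1.11, Esam by 1.06 and Jam2 by 0.65 (each exact P = 0.00794), and Cldn5 by 1.24 (exact P = 0.0159). Relative to Tjp1, Jam3 was 0.16 (exact P = 0.373) and F11r 0.20 (exact P = 0.167) higher in KO cells than in controls, within the spread between libraries. Since Tjp1 itself changed little (log2 fold change -0.13, edgeR adjusted P = 0.756), these values largely restate the fold changes given above. They are not separate support for them.

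The second yardstick was a list of 25 endothelial genes outside the junction, among them receptors such as Kdr and Tie1, transcription factors such as Erg and Sox17, and vessel-wall proteins such as Vwf and Plvap. Of these, 17 were lower and 0 higher by edgeR, where 1.86% of all genes tested were lower. DESeq2 called 18 lower and 0 higher, and 21 were lower and 0 higher at an unadjusted P value under 0.05. All 25 fold changes were negative, and the median was -0.97 on the log2 scale against -0.00085 over all genes tested. The 8 that did not pass by edgeR were Cd93, Fli1, Flt1, Gata2, Nos3, Tal1, Tek and Vwf, with values from -0.93 for Tal1 to -0.19 for Tek. The mean log2 CPM over the list was 2.36 to 2.58 in control libraries and 1.41 to 1.76 in KO libraries, a difference of -0.91. Of the 25 genes, 7 had a larger fall than Cdh5, 6 than Cldn5, 11 than Esam and Pecam1, and 17 than Jam2.

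Relative to the mean log2 CPM of these 25 genes, Cdh5 fell by 0.37 (exact P = 0.00794), Cldn5 by 0.47 (exact P = 0.0397), Pecam1 by 0.33 (exact P = 0.0159) and Esam by 0.28 (exact P = 0.0238). Jam2 differed by 0.13 (exact P = 0.294). Tjp1, Jam3 and F11r were higher relative to the list by 0.78, 0.94 and 0.98 (each exact P = 0.00794). These are 8 comparisons with unadjusted P values, and the members and the list were chosen with earlier results of these data known. The list mean combines genes with log2 fold changes from -1.65 to -0.19. Whether each list gene is restricted to endothelium in these cultures was not tested. A larger fall than the list mean is therefore not a larger fall than endothelial genes in general. Of the restricted members only Cdh5 had every KO library below every control by this measure. For Esam and Pecam1, KO 1 lay within the range of the controls (1.45 within 1.31 to 1.59, and 2.86 within 2.78 to 3.05). For Cldn5, KO 3 lay within the range of the controls, and leaving out any single library other than KO 3 gave exact P values of 0.0635 to 0.0794. The size of the differences also depended on how the list was summarised. Against the median level of the list in each library, which need not be the same gene in both groups, the 4 restricted members fell by 0.73 to 0.91. Against the list genes with a mean log2 CPM of 3 or more they fell by 0.45 to 0.63. Against 9 endothelial markers chosen after seeing the data they fell by 0.23 to 0.41, with Esam at an exact P of 0.0794.

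**Figure D4:**
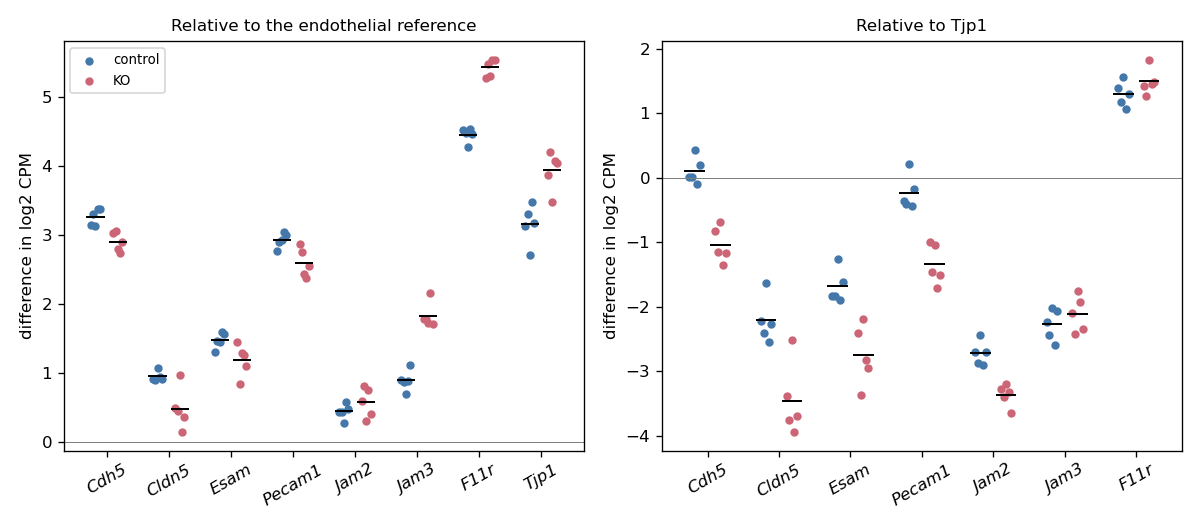
Difference in log2 CPM between each tested junction gene and the mean of 25 endothelial genes (left) or Tjp1 (right), with 1 point per library and a line at the group mean. Against the endothelial genes the restricted members are 0.28 to 0.47 lower in KO cells and Tjp1, Jam3 and F11r are 0.78 to 0.98 higher, while against Tjp1 the restricted members are 1.06 to 1.24 lower.

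The genes whose pattern over the 10 libraries came closest to that of Cdh5 were searched among 12899 genes by the root mean square difference in centred log2 CPM. They were Adgrl4 (0.111), Trp53i11 (0.127), Egfl7 (0.131), Ednrb (0.145) and Angpt2 (0.149), where the median gene stood at 0.674. Among the members Pecam1 was nearer to Cdh5 than these, at 0.0724, and Esam (0.203), Cldn5 (0.246) and Jam2 (0.290) were farther. For Tjp1 the nearest were Creb3l2 (0.0667), Trps1 (0.0735), Sox6 (0.0753), Nf1 (0.0763) and Nid1 (0.0768), with a median gene at 0.249, and F11r (0.204) and Jam3 (0.247) were close to that median.

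The partners of these proteins were then counted from lists of 129 further junction and contact genes, of which 95 could be tested. Of these 95, 13 were lower (13.7%, against 1.86% of all genes tested) and 0 higher by edgeR, 17 lower and 0 higher by DESeq2, and 3 were higher at an unadjusted P value under 0.05. Their median log2 fold change was -0.03.

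The catenins, which link cadherins to actin, and other partners of classical cadherins had 0 of 13 genes called in either direction, with a median of -0.04 (2 lower at an unadjusted P value under 0.05 and 1 lower by DESeq2). The most abundant were Ctnna1, with 403.6 ± 14.1 CPM in controls and 419.6 ± 19.2 CPM in KO cells (SD, n = 5 each, log2 fold change 0.06), and Ctnnb1, with 345.0 ± 6.56 and 340.3 ± 5.63 CPM (log2 fold change -0.02). Their ranges in the 2 groups overlapped, unlike that of Cdh5. Of 5 other cadherins tested, 1 was lower by edgeR (3 lower at an unadjusted P value under 0.05 and 2 by DESeq2). The gene called by edgeR was Cdh13, the gene of T-cadherin, which lacks a cytoplasmic tail. It was at 24.9 ± 0.806 against 15.4 ± 2.11 CPM (SD, n = 5 each, log2 fold change -0.69, adjusted P = 0.000555). Nectins, adhesion proteins of adherens junctions, had 0 of 9 called (1 lower at an unadjusted P value under 0.05 and 1 by DESeq2), with Nectin2 at 0.14 and Pvr at 0.16 on the log2 scale.

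Of 24 other genes of the claudin family and its relatives, 9 had no count in any library (Cldn6, Cldn7, Cldn8, Cldn9, Cldn14, Cldn17, Cldn18, Cldn24 and Cldn25) and 7 could be tested. The single lower gene was Tmem204, a claudin-like protein, at 2.16 ± 0.161 CPM in controls and 0.882 ± 0.108 CPM in KO cells (SD, n = 5 each, log2 fold change -1.29, adjusted P = 0.000307). Scaffold, polarity and other membrane proteins of tight junctions had 0 of 23 genes called in either direction by edgeR and by DESeq2, with 1 lower and 3 higher at an unadjusted P value under 0.05 and a median of 0.04. Ybx3, whose product binds ZO-1, was at 243.1 ± 3.89 and 261.1 ± 7.39 CPM (SD, n = 5 each, adjusted P = 0.191), and Amotl2 was at 201.5 ± 8.00 and 202.9 ± 8.81 CPM.

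Regulators of endothelial junctions had the most calls by number among these lists, 7 of 24 lower and 0 higher, where 1.86% of all genes tested were lower. DESeq2 called 8 lower and 0 higher, and 0 were higher at an unadjusted P value under 0.05, although the median was -0.06. The 4 largest falls were in Tmem88 (log2 fold change -1.56), the exchange factor genes Fgd5 (-1.46) and Arhgef15 (-1.36), and Ptprb (-1.22), which encodes VE-PTP, a phosphatase bound to VE-cadherin. Fgd5 went from 5.02 ± 0.4997 to 1.82 ± 0.325 CPM and Ptprb from 6.39 ± 1.58 to 2.75 ± 0.831 CPM (SD, n = 5 each). Levels were lower for Arhgef15, at 1.92 ± 0.335 and 0.745 ± 0.139 CPM, and for Tmem88, at 1.16 ± 0.395 and 0.396 ± 0.0905 CPM (SD, n = 5 each). The fold change of Tmem88 had an SE of 0.279. Among other adhesion proteins of endothelial contacts, 4 of 14 were lower and 0 higher (0 higher at an unadjusted P value under 0.05 and by DESeq2). These were Icam2 (-1.03), Cd34 (-0.91) and, with smaller falls, Vcam1 (-0.40) and Gja1 (-0.33), which encodes the gap junction protein connexin 43. The cell types behind these values were not tested.

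**Figure D5:**
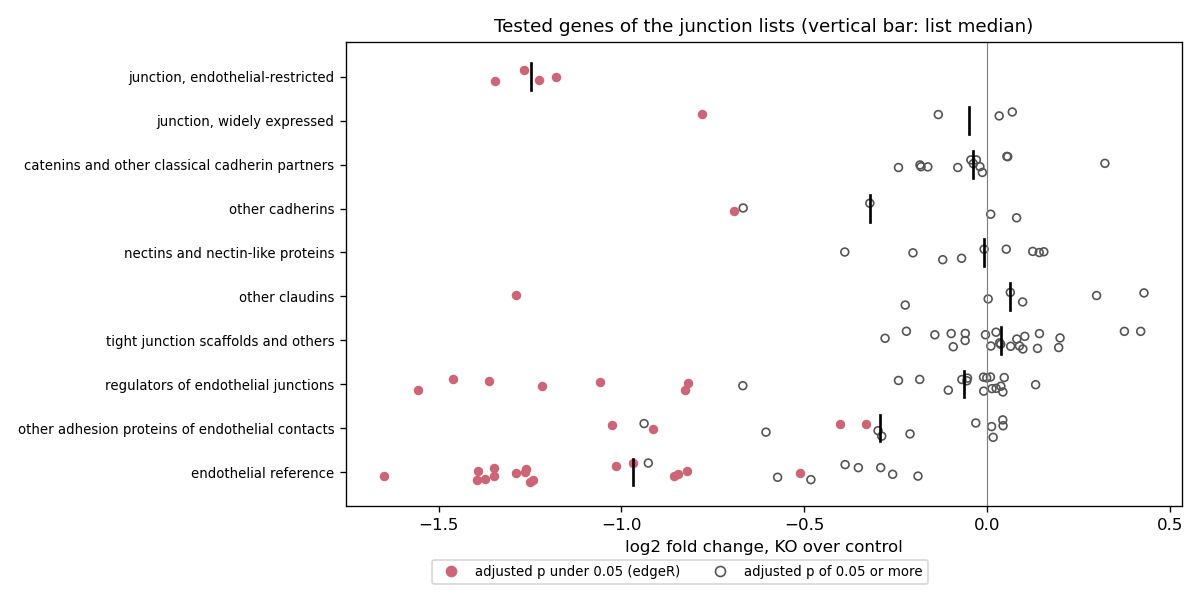
Log2 fold change of KO over control for the tested genes of each list, filled where the adjusted P value of edgeR was under 0.05, with a bar at the list median. The restricted junction genes and many endothelial genes lie near or below -1, while catenins, nectins and tight junction scaffolds lie around 0 with medians of -0.04, -0.01 and 0.04.

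Markers of the cell types that the cultures could hold were read in the same libraries. The 14 adipocyte markers summed to 41392 to 42479 CPM in control and 43222 to 45198 CPM in KO libraries, which matches the labelled cell type, with 0 called in either direction by edgeR (5 higher at an unadjusted P value under 0.05 and 2 higher by DESeq2). The 14 progenitor markers summed to 5209 to 6720 CPM in controls and 4425 to 5218 CPM in KO libraries, with a median of -0.30. By edgeR 4 were lower and 0 higher, where 1.86% of all genes tested were lower. At an unadjusted P value under 0.05, 7 were lower and 0 higher, and DESeq2 called 4 lower and 0 higher. Pericyte and smooth muscle markers had 0 of 9 called (5 lower at an unadjusted P value under 0.05, 0 by DESeq2) and a median of -0.35, with sums of 186.2 to 245.7 and 149.4 to 202.9 CPM. Lymphatic endothelial markers had 2 of 6 lower and 0 higher by edgeR, against the same 1.86% of all genes. At an unadjusted P value under 0.05, 4 were lower and 0 higher, and DESeq2 called 2 lower and 0 higher. Their sums were 68.3 to 84.2 CPM in controls and 58.0 to 80.6 CPM in KO libraries. The part of these cell types in the falls of the junction genes was not tested.

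Platelets and leukocytes also make PECAM-1, and platelets make ESAM. Of 8 platelet markers, Gp9, Gp1bb, Gp6 and Ppbp were at 0 in every library, the sum was 11.02 to 17.1 CPM in controls and 11.1 to 15.0 CPM in KO libraries, and 0 of 2 tested were called (1 lower at an unadjusted P value under 0.05, 0 by DESeq2). Macrophage and leukocyte markers had 0 of 10 called by edgeR, by DESeq2 and at an unadjusted P value under 0.05, with sums of 1458 to 2248 and 1286 to 2138 CPM and with Ms4a1 at 0. Of 12 epithelial markers, 3 could be tested and 0 were called (1 lower at an unadjusted P value under 0.05, 0 by DESeq2), Grhl2 was at 0, and the sum was 24.0 to 32.7 CPM in controls and 17.8 to 37.7 CPM in KO libraries.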

How the data were processed

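RNA-seq libraries were prepared by the authors with the SMARTer and Nextera XT kits, mapped with STAR to GRCm38.p6 (mm10 per the labels) and counted with featureCounts against an Ensembl annotation. The authors deposited counts per gene, without normalization. All 10 libraries were used, grouped by the labels' genotype. In R 4.3.3, edgeR 4.0.16 removed low genes (filterByExpr, minimum count 10), scaled by TMM and compared KO with control by its quasi-likelihood test without pairing (Benjamini-Hochberg, limit 0.05). Log2 CPM used a prior count of 2, and the SE is the log2 fold change over the square root of F. Exact permutation tests were 2-sided over 252 assignments.

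Positions and exon lengths are those of GENCODE M21 (GRCm38), matched by stable identifier for 52125 of 56748 genes. The deposited identifiers have other versions in most cases, so gene models may differ slightly.

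Besides the 9 members, the genes named are Fam20c, the called genes of each junction list (at most the 4 with the largest changes, or the 2 most abundant where none was called) and the 5 genes nearest to Cdh5 and to Tjp1. The members and lists were chosen with earlier results of these data known. Alternatives were DESeq2 1.42.0, limma 3.58.1 voom, other scaling and filters, a prior count of 0.5, other reference summaries, a replicate block and each library left out. Scripts were tested on simulated data. The value of 1 marker gene is not reported here.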

Additional observations from a re-analysis of the deposited data

Results flagged for a closer look

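In the difference between Cldn5 and the mean of the 25 endothelial genes, control 3 stood apart from the other controls. It was at 1.08 on the log2 scale against 0.90 to 0.94 in the other 4, a gap of 0.802 of the group's range where Dixon's 95% critical value for 5 libraries is 0.71. Among 34 groups examined, chance alone would mark about 1.7, and 1 was marked. KO 3 was likewise the highest of its group for this measure, at 0.98 against 0.14 to 0.49 in the other 4 KO libraries.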

How the results depend on the processing

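In every alternative fit, 5 members were called lower and 0 higher, and the fold changes of Cdh5, Cldn5, Esam, Pecam1 and Jam2 kept their sign and call. Jam3 turned sign without KO 1 or KO 4 (range with single libraries left out -0.015 to 0.10) and, in a fit chosen after seeing the data, without control 4 and KO 1 together (-0.00072), in each case far from the threshold. With Jam2 counted as restricted, 0 widely expressed genes were called. The count of all genes called higher, 44, was 125 with DESeq2, 111 with voom and 145 without control 4 and KO 1. Leaving out single libraries gave 19 to 119 higher and 164 to 323 lower against 265. It moved the higher count by over 1.5 times for control 1 (23), control 3 (24), control 4 (119), control 5 (19), KO 2 (23), KO 3 (29), KO 4 (24) and KO 5 (23), and the lower count for KO 2 (164) and KO 5 (171). These causes were not tested.

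Relative to the endothelial list, 3 to 4 of the 4 restricted genes passed 0.05 when single libraries were left out (Cldn5 was the one lost), and Esam was lost (exact P = 0.0794) against 9 endothelial markers chosen as reference after seeing the data. The replicate numbers are shared by both groups, and deviations of same-numbered libraries correlated from -0.251 to 0.263. Only control 3 had its highest correlation with the KO library of the same number. These values do not settle whether same-numbered libraries were handled together. A replicate block gave 193 genes lower and 21 higher, with the 5 members still called. In the paired comparisons 0 restricted genes passed against the endothelial list and 0 against Tjp1. Exact permutation tests within 5 pairs allow no P value below 0.0625, so none could pass. The 4 restricted genes reached this smallest value against Tjp1, and Cdh5 and Cldn5 reached it against the list. Against the list, Esam and Pecam1 did not reach it (each exact permutation test within pairs, P = 0.125). For both genes KO 1 lay above control 1 by this measure (Esam 1.45 against 1.31, Pecam1 2.86 against 2.78). Depth limits Ocln, with 12 counts in all.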
